A study of Mus musculus with 7 samples.

Results

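The colony-stimulating factors and FLT3 ligand are secreted or membrane-bound proteins that drive the growth, survival and maturation of myeloid and dendritic cells. The 10 genes described here are the 5 factors Csf1, Il34, Csf2, Csf3 and Flt3l and the 5 receptor genes Csf1r, Csf2ra, Csf2rb, Csf3r and Flt3. They were taken by symbol from the 55357 genes listed for every library, and each symbol stood on 1 row. No measured value was used as a rule to pick them, but earlier results of these data were known when they were chosen. The question was which cells of the tumour-bearing liver held RNA of each factor, which held its receptor, and how these differed between the groups.

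The libraries came from mouse livers in which hepatocellular carcinoma had been started by injecting plasmids for Nras and C-myc into the tail vein under high pressure, a method that drives plasmid DNA into hepatocytes. In the IL-2/CD25 group (4 samples) a plasmid expressing an IL-2/CD25 fusion protein was injected together with the Nras and C-myc plasmids. In the control group (3 samples) the Nras and C-myc plasmids were injected without it. Liver tissue, which the labels call HCC tissue, was taken 2 weeks after injection and sequenced as single cells with 10x 3′ chemistry, and the labels give all 7 samples the same batch. Strain, sex and age are not given in the labels, nor whether each sample is a separate mouse, so the p-values below measure the spread between these samples, which may in part be technical.

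CSF1 and IL-34 are both ligands of the receptor tyrosine kinase CSF1R, which keeps monocytes and macrophages, among them the Kupffer cells of the liver, alive. GM-CSF, the product of Csf2, binds a receptor made of the specific chain CSF2RA and the shared chain CSF2RB, which also serves interleukin-3 and interleukin-5. G-CSF, the product of Csf3, acts through CSF3R on neutrophils and their precursors. FLT3 ligand acts through the kinase FLT3 on early progenitors and on dendritic cells, whose numbers it controls. RNA was measured here, not protein, and the 3′ tags do not show which splice form of a factor was made.

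Promoters of 6 of the 10 genes (Csf1, Csf2, Csf2ra, Csf3r, Flt3 and Flt3l) were taken from a RefSeq table (build GRCm38.p6). It gives 250 bases before and 50 bases after each start. Entries of the 10 genes on 1 chromosome were skipped, so the table may hold more of them. The 6 promoters were searched on both strands for the core of the sites of PU.1, written here as GAGGAA. PU.1 is the transcription factor encoded by Spi1 that is known to drive myeloid receptor genes. Those letters stood in the promoters of Csf2ra (2 matches, adjoining) and Csf3r (1 match) and in 28.3% of all 32851 promoters of that length. Both promoters are shown because they hold the match and because the RNA of these genes, described below, was highest in myeloid and dendritic classes. Capitals mark the matches, and each sequence runs 5′ to 3′ on the gene's strand, at chr19:61228369-61228668 (minus strand) for Csf2ra and chr4:126024409-126024708 (plus strand) for Csf3r.
Csf2ra: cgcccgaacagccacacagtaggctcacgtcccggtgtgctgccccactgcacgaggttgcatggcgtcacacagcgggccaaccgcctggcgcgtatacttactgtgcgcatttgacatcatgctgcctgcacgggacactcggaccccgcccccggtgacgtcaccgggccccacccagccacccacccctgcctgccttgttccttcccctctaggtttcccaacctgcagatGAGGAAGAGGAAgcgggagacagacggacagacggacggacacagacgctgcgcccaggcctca
Csf3r: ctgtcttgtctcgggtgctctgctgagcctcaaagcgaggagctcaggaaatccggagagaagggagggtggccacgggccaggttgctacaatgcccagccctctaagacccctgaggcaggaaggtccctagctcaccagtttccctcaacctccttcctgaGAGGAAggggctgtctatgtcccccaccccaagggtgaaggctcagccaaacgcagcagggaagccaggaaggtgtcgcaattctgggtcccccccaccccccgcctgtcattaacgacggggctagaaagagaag
The AP-1 letters TGANTCA stood in 0 of the 6 promoters (7.81% of all promoters), the letters GGGAAA in 4 of the 6 (Csf1, Csf2, Csf2ra and Csf3r; 25.2%) and the letters TATAAA in 0 of the 6 (13.6%). The start that the table uses for Csf2 is in doubt, so its stretch may not be the promoter in use. A match describes the letters and is not evidence of binding.

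After removal of poor barcodes and called doublets, 6823 to 9551 cells remained in each IL-2/CD25 sample and 6834 to 8789 in each control sample, from libraries of 37653600 to 47881379 and 76438139 to 181755269 UMIs. A UMI is 1 captured RNA molecule, and levels are given as CPM, the UMIs of a gene per 1000000 UMIs of that cell class in that sample. Cells were clustered without the 10 genes and named by marker genes, so that each name below means cells that resemble the type in marker RNA. The groups differed in makeup: the IL-2/CD25 samples held 14714 NK cells and ILC1 and 15 tumour cells, and the control samples held 536 NK cells and ILC1 and 3296 tumour cells. Monocytes numbered 304 and 5544 in the IL-2/CD25 and control samples, and C1q macrophages 90 and 2129. A class was compared between groups where at least 2 samples of each group held 20 or more of its cells, and CPM is printed for samples with 10 or more. Any 2 libraries shared 0.146% to 0.364% of the barcodes of the smaller one.

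The control samples also held a shallow cluster of 4185 cells, against 12 cells in the IL-2/CD25 samples, with a median of 1208 UMIs per cell. It expressed all 10 neutrophil markers but was led by Cxcl3, Hcar2, Car4 and Cxcl2 with no neutrophil marker among its 10 leading genes. It was left unnamed and is called cluster 1. That criterion was not kept for every cluster: clusters 3, 15, 59 and 60 were named T cells with no T cell marker among their 10 leading genes. The neutrophil markers pooled to 40560 CPM in cluster 1 and 235000 CPM in neutrophils of the control samples. Different clusters made up several named classes in the 2 groups. Neutrophils were mostly cluster 13 in the IL-2/CD25 samples and cluster 8 in the control samples, and monocytes were clusters 49 and 50 against clusters 6 and 7. C1q macrophages were cluster 51 against cluster 10, and cDC2 were cluster 20 against cluster 19. The same held for cDC1 (mostly cluster 33 against cluster 17) and B cells (cluster 2 against cluster 22). It also held for CD8 T cells (mostly cluster 4 against cluster 18) and CD4 T cells (cluster 15 at 50.8% against cluster 18 at 52.7%).

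In the 13 classes that could be compared, 67 of the 130 gene-class pairs had enough UMIs to be tested. Of these, 15 were higher and 20 lower in the IL-2/CD25 samples at an edgeR adjusted p under 0.05. Over all genes, 32.8% of the pairs tested in the same classes were called, 15.7% as higher and 17.1% as lower. The split by lineage was uneven. In the myeloid and dendritic classes 14 of 38 tested pairs were higher and 3 lower, while in the lymphoid classes 1 of 29 was higher and 17 lower. The count of lower pairs was 11 without control replicate 1, 3 of 43 tested with an estimate of free RNA subtracted, and 3 of 37 tested with sums thinned to equal UMIs. Il34 and Csf3 lay mostly in tumour cells, of which the IL-2/CD25 samples held too few for a comparison, and had too few UMIs for a test in the 13 classes, so 8 of the 10 genes contribute to these counts. Summed over all cells of a sample, 2 of the 10 genes were higher (33.9% of all genes were) and 5 lower (35.8% of all genes were). In such a sum, fewer cells of a type and less RNA per cell cannot be told apart.

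**Figure D1:**
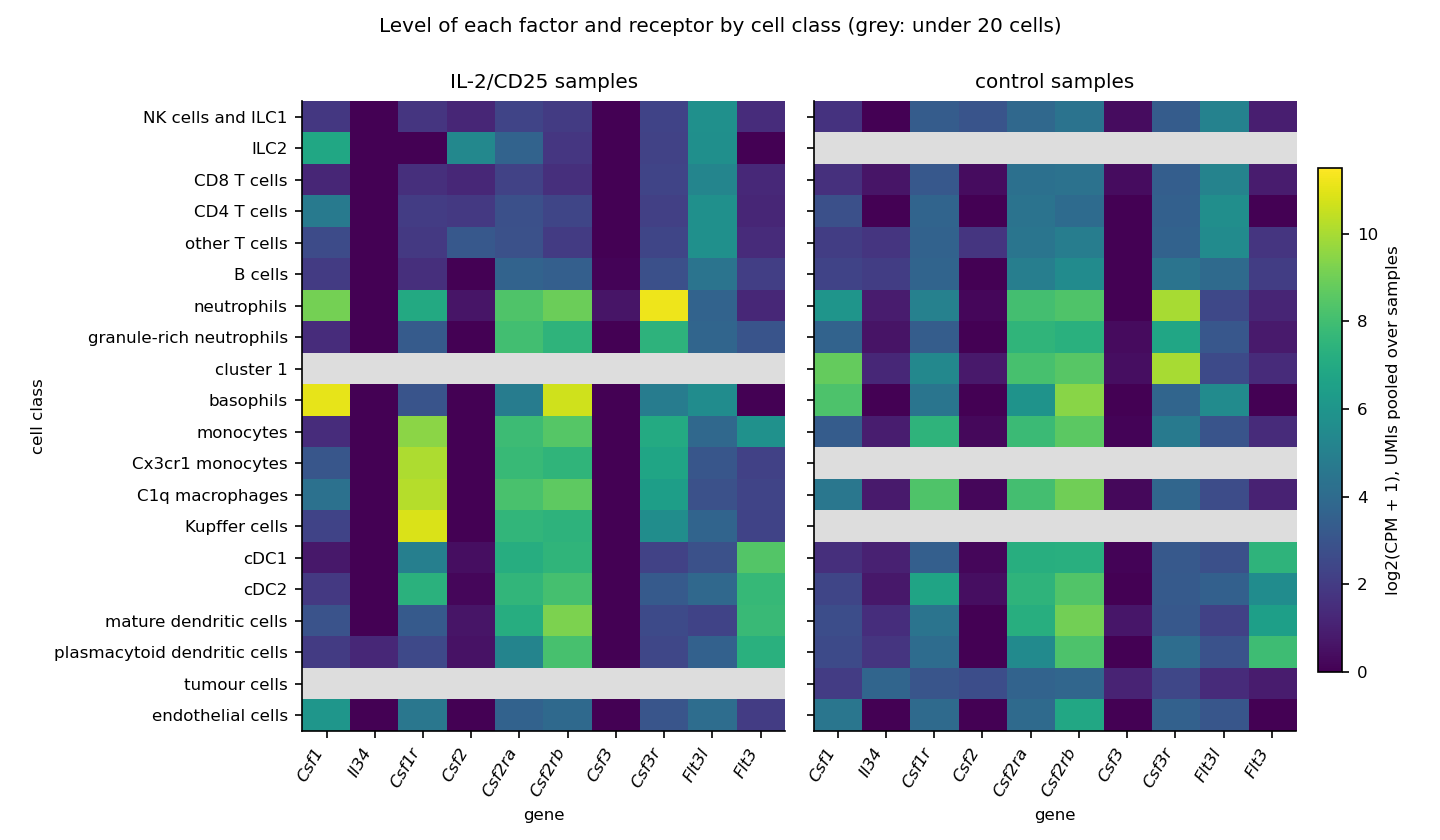
Level of each of the 10 genes (columns) in 20 cell classes (rows) as log2(CPM + 1) of UMIs pooled over the samples of a group, with the IL-2/CD25 samples left and the control samples right; grey rows had under 20 cells in that group. Csf3r was highest in neutrophils in both panels, Csf1r in monocytes and macrophages, Flt3 in dendritic cells, and Flt3l in NK and T cells.

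Neutrophils held most of the Csf1 RNA in the IL-2/CD25 samples. Csf1 (ENSMUSG00000014599) was measured there at 472, 572, 511 and 627 CPM in the IL-2/CD25 samples, against 56.1, 40.4 and 91.8 CPM in the control samples. The groups did not overlap, and the fitted log2 change was 2.66 ± 0.22 (SE, edgeR adjusted p = 1.9e-07); 49.4% of all genes tested in neutrophils were called. Of all Csf1 UMIs, 59.6% ± 9.6 were in neutrophils in the IL-2/CD25 samples, against 9.41% ± 3.9 in the control samples (SD over samples), with granule-rich neutrophils counted in.

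In the control samples the largest share of the Csf1 RNA lay instead in cluster 1, with 447, 421 and 462 CPM and 47.9% ± 8.5 of the UMIs. The size of the neutrophil difference turned on where these cells were placed. With cluster 1 counted among the neutrophils, Csf1 averaged 546 ± 67 CPM in the IL-2/CD25 samples and 229.9 ± 10.3 CPM in the control samples (SD, n = 4 and 3), and the log2 change was 1.07 ± 0.12 (edgeR adjusted p = 2.58e-06; 53.4% of all genes tested were called). In cells thinned to 1500 UMIs each, a Csf1 UMI was found in 37.4% ± 3.0 of neutrophils in the IL-2/CD25 samples and in 6.04% ± 1.7 in the control samples. Unthinned, the shares were 45.7% and 10.6%. In B cells the thinned shares were 0.516% and 1.21%. Median depths were 2366.5 and 2247 UMIs per neutrophil and 2731.5 and 1840.5 UMIs per B cell.

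Among the named classes basophils had the highest Csf1 level, although they were few (31 cells in the IL-2/CD25 samples and 72 in the control samples). They held 1847 and 3165 CPM in the 2 IL-2/CD25 samples with 10 or more of them, against 412, 235 and 289 CPM in the control samples, where cluster 1 lay above them. Fitted on the 3 samples of each group with 5 or more basophils, the log2 change was 2.80 ± 0.36 (edgeR adjusted p = 0.0033; 3.68% of all genes tested were called). Neutrophils of the IL-2/CD25 samples also held more of the summed basophil and mast cell list, at 2429 to 2890 CPM against 319 to 508 CPM in the control samples. That sum was nearly all Hdc, the gene for histidine decarboxylase, at 2426 to 2890 CPM against 312 to 495 CPM. Of the defining basophil genes, Mcpt8 and Cpa3 had 1 UMI each in neutrophils of the IL-2/CD25 samples, and Ms4a2, Fcer1a and Gata2 had 0.

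Several lymphoid classes held Csf1 at lower levels. ILC2, innate lymphocytes that make type 2 cytokines, had 261, 76.0, 55.9 and 47.9 CPM in the IL-2/CD25 samples, where replicate 1 stood far above the others; the control samples held 2 such cells. CD4 T cells had 25.4, 17.9, 28.8 and 27.6 CPM in the IL-2/CD25 samples, against 6.33, 0 and 13.9 CPM in the control samples. The CD4 groups did not overlap, but the log2 change of 1.97 ± 0.61 missed the threshold (edgeR adjusted p = 0.0507; 10.3% of all genes tested in CD4 T cells were called). The difference was called without the low-count filter (2.08, adjusted p = 0.00903), on library sizes alone (2.03, adjusted p = 0.0431) and without IL-2/CD25 replicate 2 (2.08, adjusted p = 0.0404). The control side of that comparison rests on 4 UMIs. Within the IL-2/CD25 samples, CD4 T cells with a Foxp3 UMI, the marker of regulatory T cells, had 34, 27.3, 47.5 and 26.99 CPM, and those without had 8.84, 12.1, 17.1 and 28.96 CPM. The ranges overlapped, because replicate 4 was higher without a Foxp3 UMI than with one. A Foxp3 UMI was found in 735 of the 1585 CD4 T cells of the IL-2/CD25 samples and in 36 of the 146 of the control samples. The part of that difference in the Csf1 change was not tested.

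Monocytes and C1q macrophages, the cells that carry the receptor, held Csf1 at low levels. Of the 5107 Csf1 UMIs of the control samples, monocytes held 548, C1q macrophages 575 and tumour cells 546. At the ratio of Csf1 to S100a8 and S100a9 in neutrophils, granule-rich neutrophils and cluster 1, free RNA would bring 349, 23.8 and 130. That counts any S100a8 and S100a9 RNA made by the cells themselves as free RNA. The 15 tumour cells of the IL-2/CD25 samples held 15 Csf1 UMIs. C1q macrophages had 20.7, 6.12, 24.7 and 18.8 CPM in the IL-2/CD25 samples, against 19.4, 31.8 and 17.6 CPM in the control samples, and the groups overlapped (log2 change -0.23 ± 0.45, edgeR adjusted p = 0.742). Over all cells of a sample, Csf1 averaged 21.98 ± 1.78 CPM in the IL-2/CD25 samples and 17.6 ± 6.2 CPM in the control samples, and no difference was called (adjusted p = 0.683). Without control replicate 3 the log2 change was -0.33 and called (adjusted p = 0.0162).

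Il34 (ENSMUSG00000031750), the other ligand of CSF1R, was found in tumour cells. These held 12.3, 11.9 and 12.4 CPM in the 3 control samples, and 2184 of the 2357 Il34 UMIs of those samples, or 91.6% ± 1.8 on average. The IL-2/CD25 samples held 18 Il34 UMIs in all, of which 9 were in plasmacytoid dendritic cells. Over all cells the level was 0.287, 0.120, 0.0288 and 0.0727 CPM in the IL-2/CD25 samples, against 5.01, 3.76 and 9.77 CPM in the control samples (log2 change -6.07 ± 0.69, edgeR adjusted p = 0.000242; 69.7% of all genes were called over all cells). The 15 tumour cells of the IL-2/CD25 samples had 3 Il34 UMIs, or 3.99 CPM with a counting interval of 0.823 to 11.7 CPM, which is too few for a comparison of the clustered tumour cells. Gating cells 1 by 1 on tumour marker UMIs gave 56 cells in the IL-2/CD25 samples, but 11 of these lay in the tumour clusters and 36 in cluster 36, an unnamed cluster led by Igfbp5, Upk3b and Fmo2; of the 3118 gated control cells, 2625 lay in the tumour clusters. In the 2 IL-2/CD25 samples with 20 or more gated cells Il34 had 2 UMIs, and the log2 change against the 3 control samples was -2.93 ± 0.70 (edgeR adjusted p = 0.0185; 38.9% of all genes tested were called). In the same fit Csf1 (4.09 ± 0.25, adjusted p = 0.00204) and Flt3l (2.21 ± 0.47, adjusted p = 0.0125) were called higher, and no other of the 10 genes was called. Because most gated IL-2/CD25 cells lay outside the tumour clusters, none of these values compares tumour cells alone.

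**Figure D2:**
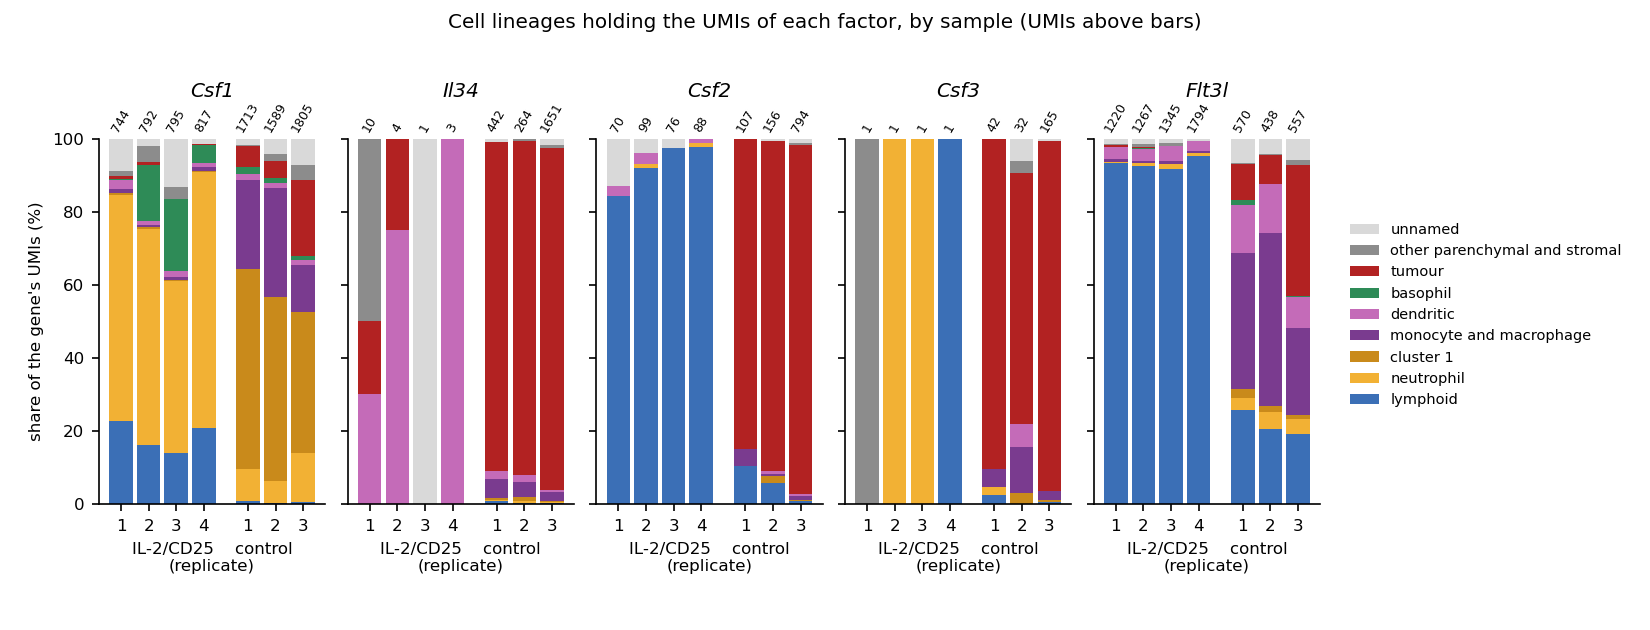
Share of each factor's UMIs (percent, y axis) held by each cell lineage in each sample (x axis: 4 IL-2/CD25 samples, then 3 control samples); the number above a bar is the sample's UMIs of that gene. Tumour cells hold most Il34, Csf2 and Csf3 in the control samples, and lymphoid cells hold most Csf2 and Flt3l in the IL-2/CD25 samples.

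Csf1r (ENSMUSG00000024621), the receptor of both ligands, was higher in monocytes and macrophages of the IL-2/CD25 samples. Monocytes had 762, 698, 652 and 743 CPM in the IL-2/CD25 samples, against 201, 159 and 165 CPM in the control samples (log2 change 1.95 ± 0.11, edgeR adjusted p = 1.66e-08; 51.7% of all genes tested in monocytes were called). C1q macrophages had 1202, 1113, 1324 and 1115 CPM in the IL-2/CD25 samples, against 341, 317 and 298 CPM in the control samples. The lowest IL-2/CD25 sample was more than 3 times the highest control sample in both classes. The C1q fit left out IL-2/CD25 replicate 2, which had under 20 such cells, and gave 1.80 ± 0.13 (adjusted p = 1.18e-06; 29.8% of all genes tested there were called). Macrophage markers moved with Csf1r: the 9 C1q macrophage markers summed to 2115 to 4263 CPM in monocytes of the IL-2/CD25 samples, against 880.0 to 1001 CPM in the control samples. In C1q macrophages the same markers pooled to 33380 and 5703 CPM. Their part in the Csf1r result was not tested.

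Csf1r was highest in the resident macrophages. Kupffer cells, the resident macrophages of the liver, had 2022, 1806, 2076 and 1468 CPM, above C1q macrophages in every IL-2/CD25 sample. Cx3cr1 monocytes, the patrolling type, had 872, 1213 and 1139 CPM in the 3 samples with 10 or more, a range that overlapped that of C1q macrophages. Control samples held too few Kupffer cells (8) or Cx3cr1 monocytes (2) for a level. Lower Csf1r levels were found in neutrophils, at 117, 124, 133 and 130.5 CPM against 34.1, 30.8 and 30.1 CPM in the control samples (1.53 ± 0.13, adjusted p = 3.88e-07), and in dendritic cells. It was also higher in cDC1, the conventional dendritic cells that cross-present antigen (1.48 ± 0.27, adjusted p = 0.000516), and in cDC2, which prime CD4 T cells (0.55 ± 0.14, adjusted p = 0.00434). The cDC1 difference was 0.67 with sums thinned to equal UMIs (adjusted p = 0.16). When cells were gated 1 by 1 on marker UMIs, the cDC2 difference was 0.01 (adjusted p = 0.987).

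Although the level per class was higher in the IL-2/CD25 samples, Csf1r over all cells was lower: 44.6, 36.2, 41.7 and 48.8 CPM, against 111, 102 and 36.6 CPM in the control samples (log2 change -1.37 ± 0.32, edgeR adjusted p = 0.00613). Control replicate 3 lay within the IL-2/CD25 range. Monocytes and macrophages held 57.6% ± 0.9 of the Csf1r UMIs in the IL-2/CD25 samples and 79.7% ± 7.5 in the control samples. Dendritic cells held 18.6% ± 2.6 and 4.71% ± 0.29.

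Csf2 (ENSMUSG00000018916) lay in different cells in the 2 groups. In the IL-2/CD25 samples, 310 of its 333 UMIs were in lymphoid cells (92.8% ± 6.3 on average). In the control samples, 992 of its 1057 UMIs were in tumour cells (90.4% ± 5.3), and 26 were in lymphoid cells. Tumour cells there had 2.81, 6.96 and 6.11 CPM, and none of the 15 tumour cells of the IL-2/CD25 samples had a UMI, for which the exact Poisson interval reaches 4.91 CPM. Over all cells, the log2 change of -0.72 ± 0.47 was not called (adjusted p = 0.206); without control replicate 1 it was -1.12 and called (adjusted p = 0.0415).

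Among the lymphoid cells of the IL-2/CD25 samples, T cells outside the CD4 and CD8 gates (no UMI of either gate, or UMIs of both) held 48.6% ± 5.8 of the Csf2 UMIs, NK cells and ILC1 22.6% ± 3.6, and ILC2 9.22% ± 8.4. The level was highest in ILC2, with 13.5, 48.4, 20.9 and 70.1 CPM. These other T cells had 6.05, 11.8, 8.82 and 6.49 CPM in the IL-2/CD25 samples, against 2.16, 2.58 and 2.57 CPM in the control samples. Those groups did not overlap, but the control values rest on 3 UMIs and the log2 change of 1.67 ± 0.68 missed the threshold (edgeR adjusted p = 0.101; 19.1% of all genes tested in other T cells were called). By cluster, the T cells of cluster 5, led by Cd6, Cd40lg and Cxcr6, held 120 Csf2 UMIs at 12.2 CPM (10.1 to 14.5 by counting error), and the small cluster 58, led by Cxcr6 and Icos, 57.6 CPM (33.6 to 92.2).

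In NK cells and ILC1 the Csf2 level was lower. Csf2 fell to 1.36, 1.78, 1.52 and 0.928 CPM in the IL-2/CD25 samples, against 12.2, 4.22 and 9.17 CPM in the control samples (log2 change -2.50 ± 0.45, edgeR adjusted p = 0.000718; 43.3% of all genes tested in NK cells and ILC1 were called). The 22 control UMIs all lay in cluster 16, which made up 84.7% of the control cells of this class, whereas cluster 0 made up 77.3% of it in the IL-2/CD25 samples. Tumour markers summed to 132.5 to 156.5 CPM in NK cells and ILC1 of the IL-2/CD25 samples, against 403 to 994 CPM in the control samples. At the ratio of Csf2 to Krt8 and Krt18 seen in tumour cells, free tumour RNA would bring 0.649 Csf2 UMIs to the control NK cells and ILC1, where 22 were counted. B cells held 0 Csf2 UMIs in either group.

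The receptor chains of GM-CSF were spread over all myeloid and dendritic classes. Csf2ra (ENSMUSG00000059326) had 232, 279.8, 234 and 227 CPM in monocytes of the IL-2/CD25 samples, against 229, 244 and 206 CPM in the control samples (log2 change 0.01 ± 0.10, edgeR adjusted p = 0.947). None of the 8 myeloid and dendritic comparisons of Csf2ra was called, and their log2 changes ran from -0.36 in plasmacytoid dendritic cells to 0.15 in granule-rich neutrophils. In neutrophils the direction depended on the scaling: -0.22 ± 0.13 (adjusted p = 0.163) with TMM scaling, and 0.25 (adjusted p = 0.0977) on library sizes alone. It was called higher when cells were gated 1 by 1 on marker UMIs (0.96, adjusted p = 0.00375), and called lower with doublets kept (-0.40, adjusted p = 0.017) and with free RNA subtracted (-0.45, adjusted p = 0.0163). In plasmacytoid dendritic cells it was called lower with doublets kept (-0.73, adjusted p = 0.017).

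Csf2rb (ENSMUSG00000071713) reached its highest level in basophils, at 1847 and 1794 CPM in 2 IL-2/CD25 samples, against 928, 619 and 549 CPM in the control samples. Fitted on 3 samples of each group, the basophil groups overlapped. The log2 change there of 1.13 ± 0.34 was not called (edgeR adjusted p = 0.0785). Mature dendritic cells came next, with 674, 527, 723 and 518 CPM against 554, 581 and 494 CPM, and the groups overlapped. Csf2rb was lower in C1q macrophages of the IL-2/CD25 samples (429, 371 and 319 CPM in the 3 fitted samples, against 565, 472 and 450 CPM; log2 change -0.53 ± 0.16, edgeR adjusted p = 0.0244). IL-2/CD25 replicate 2, left out of that fit for its few cells, had 496 CPM, within the control range. It was also lower in cDC2, with 272, 282, 262 and 300.3 CPM against 368, 351 and 275 CPM (-0.32 ± 0.10, adjusted p = 0.0169; 48.7% of all genes tested in cDC2 were called). The C1q call was lost with the replicate block (-0.48, adjusted p = 0.107), with free RNA subtracted (-0.37, adjusted p = 0.245), with marker gating (-0.28, adjusted p = 0.123), with thinning (-0.43, adjusted p = 0.0812) and on library sizes alone (-0.40, adjusted p = 0.0672). It was also lost without control replicate 1 (-0.38, adjusted p = 0.132), control replicate 2 (-0.50, adjusted p = 0.053) or IL-2/CD25 replicate 4 (-0.51, adjusted p = 0.0536). The cDC2 call was lost with free RNA subtracted (-0.21, adjusted p = 0.119), on library sizes alone (-0.25, adjusted p = 0.0657) and without control replicate 1 (-0.27, adjusted p = 0.0838) or 2 (-0.29, adjusted p = 0.0541). In neutrophils Csf2rb averaged 489.5 ± 41.03 CPM in the IL-2/CD25 samples and 322 ± 45 CPM in the control samples, but the fitted change was 0.14 ± 0.12 (adjusted p = 0.352). On library sizes alone it was 0.61 (adjusted p = 0.000808), a scaling that moved the median of all genes in neutrophils by 0.46. It was also called higher with cells gated 1 by 1 on marker UMIs (1.18, adjusted p = 0.000424) and with cluster 1 counted in (0.36, adjusted p = 0.0154).

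The chains also lay in different cells in the 2 groups. Dendritic cells held 39.1% ± 3.9 of the Csf2ra and 54.97% ± 3.28 of the Csf2rb UMIs in the IL-2/CD25 samples, against 11.3% ± 1.1 and 11.6% ± 0.5 in the control samples. Monocytes and macrophages held 17.9% ± 4.3 and 13.6% ± 4.1 in the IL-2/CD25 samples, against 62.2% ± 8.4 and 67.1% ± 6.8. Over all cells both fell, Csf2ra with a log2 change of -2.09 ± 0.30 (edgeR adjusted p = 0.000666) and Csf2rb with -1.94 ± 0.31 (adjusted p = 0.00107). Plasmacytoid and mature dendritic cells both held far more Csf2rb than Csf2ra. Plasmacytoid dendritic cells had 39.97, 42.1, 34.7 and 27 CPM of Csf2ra and 299, 288, 285 and 271 CPM of Csf2rb in the IL-2/CD25 samples. Mature dendritic cells averaged 141 CPM of Csf2ra and 611 CPM of Csf2rb in the same samples. The averages were closer in cDC1 (141 and 186 CPM) and cDC2 (186 and 279 CPM).

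**Figure D3:**
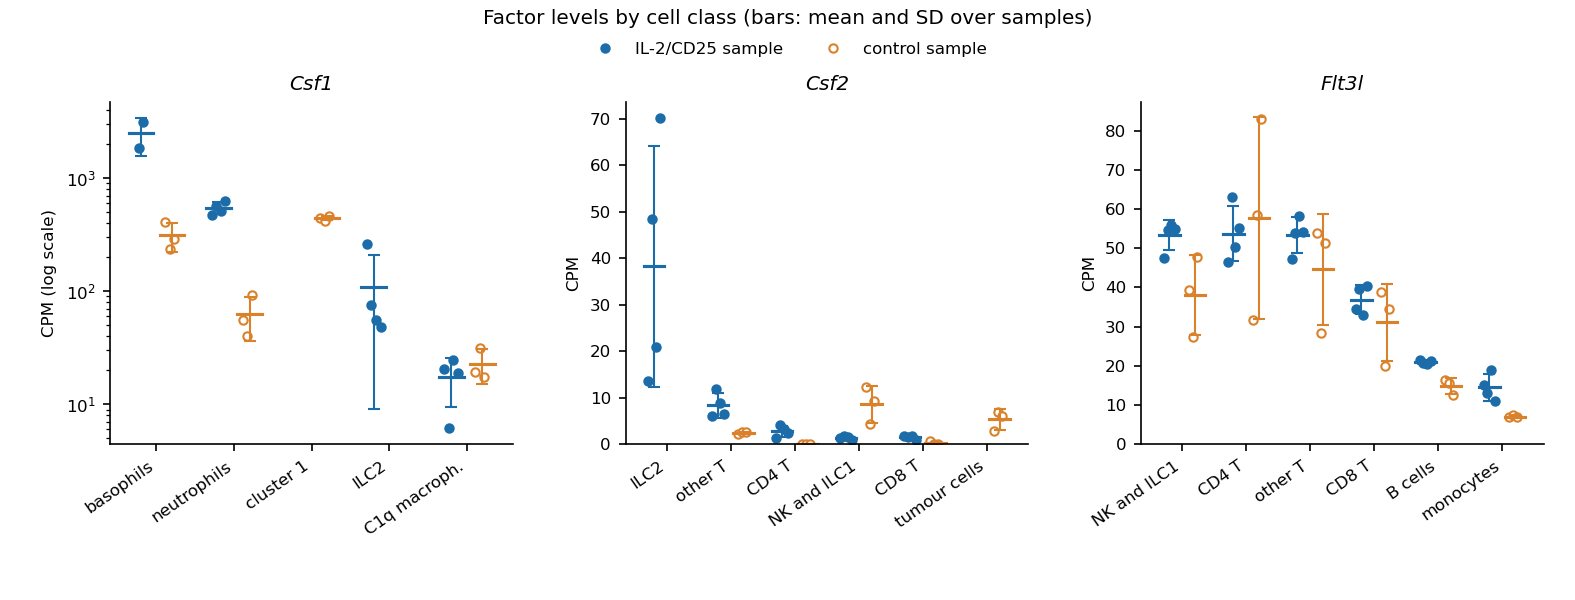
CPM of Csf1 (log scale), Csf2 and Flt3l (linear scales) in the classes named on the x axis; filled points are IL-2/CD25 samples and open points control samples with 10 or more cells of the class, and bars give the mean and SD. Csf1 in neutrophils lies between 472 and 627 CPM in the IL-2/CD25 samples and at or below 91.8 CPM in the control samples, and Csf2 in NK cells and ILC1 is lower in all IL-2/CD25 samples.

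Csf3 (ENSMUSG00000038067) was the rarest of the genes. Tumour cells of the control samples had 1.17, 1.09 and 1.27 CPM and held 218 of the 239 Csf3 UMIs of that group. The IL-2/CD25 samples held 4 Csf3 UMIs, 1 in each sample. Over all cells the log2 change was -4.90 ± 0.51 (edgeR adjusted p = 0.000181). At these counts the data show which cells held the RNA but not how it varied among them.

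Csf3r (ENSMUSG00000028859) marked neutrophils, which had 2179, 2589, 2525 and 2247 CPM in the IL-2/CD25 samples, against 1089, 916 and 1034 CPM in the control samples (log2 change 0.78 ± 0.12, edgeR adjusted p = 8.43e-05). The groups did not overlap. Cluster 1 of the control samples had 1088, 1023 and 946 CPM, close to the named neutrophils of the same samples, and with it counted in the change was 1.05 ± 0.11 (adjusted p = 1.84e-06). Summed neutrophil markers took 88810 to 102900 CPM of neutrophils in the IL-2/CD25 samples and 205600 to 253400 CPM in the control samples. On library sizes alone the Csf3r change was 1.24. Granule-rich neutrophils, which carry more granule gene RNA, had 135, 187 and 215 CPM in the 3 IL-2/CD25 samples with 10 or more cells and 92.4, 95.7 and 133.7 CPM in the control samples, and the change of 0.15 ± 0.25, fitted on the 2 IL-2/CD25 samples with 20 or more, was not called (adjusted p = 0.734; 14.7% of all genes tested there were called).

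Monocytes and C1q macrophages of the IL-2/CD25 samples also held Csf3r. Monocytes had 122, 133, 126.5 and 137.5 CPM in the IL-2/CD25 samples, against 29.6, 25.7 and 19.4 CPM in the control samples (2.30 ± 0.15, adjusted p = 7.86e-08). C1q macrophages had 56.3, 79.5, 109 and 113 CPM, against 14.5, 14.2 and 8.94 CPM, and the 3 fitted IL-2/CD25 samples gave 2.69 ± 0.30 (adjusted p = 3.11e-05). No IL-2/CD25 sample of either class reached down to a control sample. In monocytes the neutrophil markers summed to 259.6 to 354 CPM in the IL-2/CD25 samples, against 5210 to 7471 CPM in the control samples. The ratio of Csf3r to S100a8 and S100a9 was taken from neutrophils, granule-rich neutrophils and cluster 1. At that ratio the S100a8 and S100a9 in monocytes of the IL-2/CD25 samples would go with 5.37 Csf3r UMIs where 307 were counted. In the control samples the number was 1578, where 1514 were counted. Any S100a8 and S100a9 RNA made by the monocytes themselves is included, so the part that was free RNA was not measured. With free RNA subtracted the change of Csf3r in monocytes was 3.05 (adjusted p = 1.03e-05).

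Flt3l (ENSMUSG00000110206) was the 1 factor called higher over all cells. Over all cells it had 35, 38.2, 38.7 and 43.5 CPM in the IL-2/CD25 samples, against 6.46, 6.24 and 3.29 CPM in the control samples (log2 change 2.45 ± 0.22, edgeR adjusted p = 0.000111). Lymphoid cells held 93.2% ± 1.6 of its UMIs in the IL-2/CD25 samples and 21.7% ± 3.4 in the control samples. NK cells and ILC1 alone held 52.2% ± 3.8 in the IL-2/CD25 samples. In the control samples the largest share, 36.2% ± 11.9, lay in monocytes and macrophages.

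Per class, Flt3l differed far less than in the total. NK cells and ILC1 had 47.6, 54.6, 56.1 and 55.04 CPM in the IL-2/CD25 samples, against 39.3, 27.4 and 47.7 CPM in the control samples (0.55 ± 0.15, adjusted p = 0.00904). The lowest IL-2/CD25 sample and the highest control sample overlapped, and with sums thinned to equal UMIs the change was 0.03 (adjusted p = 0.937). The call was also lost without control replicate 2 (0.31, adjusted p = 0.202), with free RNA subtracted (0.41, adjusted p = 0.0648) and with marker gating (0.42, adjusted p = 0.0596). CD4 T cells averaged 53.8 ± 7.1 CPM in the IL-2/CD25 samples and 57.8 ± 25.7 CPM in the control samples, CD8 T cells 36.9 ± 3.7 and 31.1 ± 9.9 CPM, and other T cells 53.5 ± 4.5 and 44.6 ± 14.1 CPM (n = 4 and 3). None of those changes was called, with log2 changes of -0.02 ± 0.29, 0.04 ± 0.18 and 0.17 ± 0.20. In monocytes Flt3l was higher, at 14.5 ± 3.4 CPM against 7.01 ± 0.32 CPM (0.90 ± 0.27, adjusted p = 0.0121), a call that was lost without IL-2/CD25 replicate 3 (0.74, adjusted p = 0.0743) and without the low-count filter (0.75, adjusted p = 0.0948).

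Flt3 (ENSMUSG00000042817) lay in dendritic cells in both groups, with 84.03% ± 2.59 of the UMIs in the IL-2/CD25 samples and 88.3% ± 4.0 in the control samples. The type of dendritic cell differed. Of all Flt3 UMIs, cDC1 held 22.4% ± 2.2 in the IL-2/CD25 samples and 63.1% ± 5.3 in the control samples, cDC2 29.8% ± 2.6 and 12.4% ± 3.6, and plasmacytoid dendritic cells 22.8% ± 3.8 and 8.67% ± 2.1.

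The Flt3 level was higher in conventional dendritic cells of the IL-2/CD25 samples. In cDC1 it was 316, 361, 357 and 332 CPM in the IL-2/CD25 samples, against 185, 186 and 161 CPM in the control samples (0.87 ± 0.11, edgeR adjusted p = 2.7e-05; 37.7% of all genes tested in cDC1 were called). In cDC2 it was 179.9, 226, 227 and 202 CPM, against 49.3, 51.2 and 41.8 CPM (2.06 ± 0.12, adjusted p = 4.43e-09). Mature dendritic cells, which carry antigen to lymph nodes, had 178, 297, 228 and 204 CPM, against 89.4, 105 and 77.6 CPM (1.33 ± 0.21, adjusted p = 0.000372; 21.4% of all genes tested there were called). In none of these 3 classes did the groups overlap.

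In plasmacytoid dendritic cells, the main makers of type I interferon, Flt3 was lower. It fell to 158, 153, 157 and 169 CPM in the IL-2/CD25 samples, against 226.5, 315 and 194 CPM in the control samples (-0.68 ± 0.14, edgeR adjusted p = 0.00095; 16% of all genes tested there were called). When cells were gated 1 by 1 on marker UMIs the change was -0.35 (adjusted p = 0.16). Monocytes showed the largest change of the 67 tested gene-class pairs: 64.4, 31.4, 52.7 and 61.3 CPM in the IL-2/CD25 samples, against 1.73, 1.64 and 1.56 CPM in the control samples (4.94 ± 0.25, adjusted p = 7.51e-09). In monocytes thinned to 1500 UMIs, 8.31% ± 4.5 had a Flt3 UMI in the IL-2/CD25 samples and 0.193% ± 0.050 in the control samples. Unthinned, the shares were 27.96% and 1.57%. In B cells 0.425% and 0% of thinned cells had one, at median depths of 2731.5 and 1840.5 UMIs, against 7583.5 and 10074.5 UMIs in monocytes.

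Markers of cDC2 moved with that monocyte difference. The 8 genes of the list summed to 254 to 388 CPM in monocytes of the IL-2/CD25 samples, against 41.1 to 50.6 CPM in the control samples, and to 2127 to 2445 CPM in cDC2 of the IL-2/CD25 samples. Cd209a, a lectin of cDC2, ran from 32.6 to 161 CPM in monocytes of the IL-2/CD25 samples, against 0.379 to 0.528 CPM in the control samples. Ccl17, a chemokine of cDC2, was at 0 to 11.9 CPM against 11.3 to 21.6 CPM. The plasmacytoid marker Siglech had 5 UMIs in the monocytes of the IL-2/CD25 samples. The part of cDC2 markers in the Flt3 result was not tested.

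**Figure D4:**
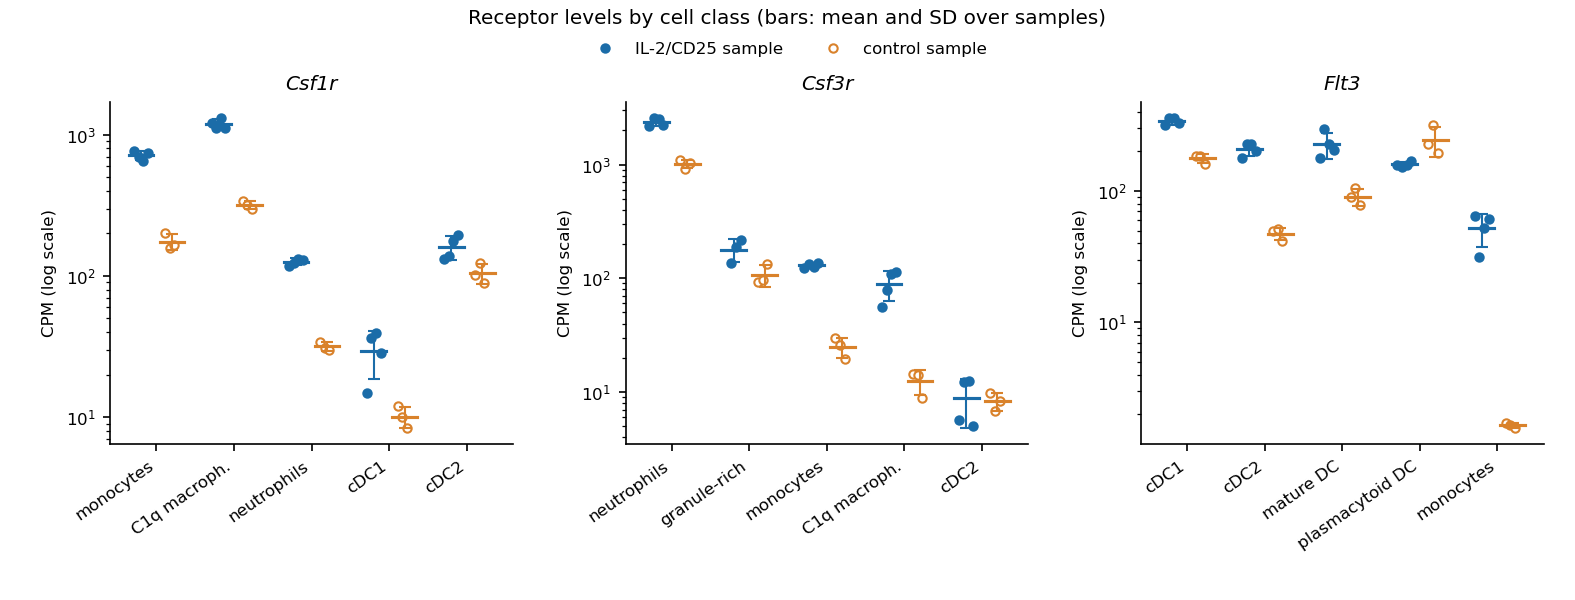
CPM (log scales) of Csf1r, Csf3r and Flt3 in the classes named on the x axis; filled points are IL-2/CD25 samples and open points control samples with 10 or more cells of the class, and bars give the mean and SD. The groups are apart in monocytes for all 3 receptors, and Flt3 in plasmacytoid dendritic cells is the 1 comparison shown in which the control samples lie above.

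**Figure D5:**
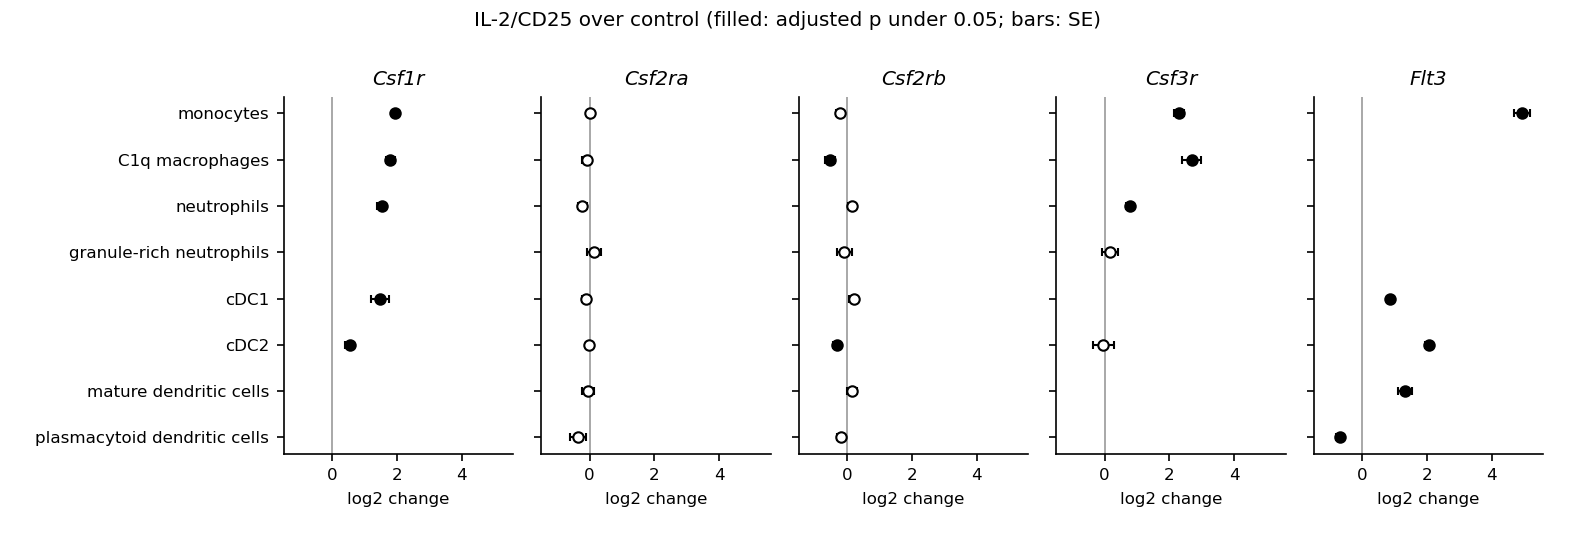
Fitted log2 change, IL-2/CD25 over control, of each receptor gene (panels) in each myeloid and dendritic class tested (rows); filled points were called at an adjusted p under 0.05 and bars are 1 SE. Csf1r, Csf3r and Flt3 changes lie mostly right of 0, whereas those of Csf2ra and Csf2rb lie between -0.53 and 0.20.

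NK, T and B cells held receptor RNA at low levels. In NK cells and ILC1, CD8 T cells, other T cells and B cells, each of Csf1r, Csf2ra, Csf2rb and Csf3r was called lower in the IL-2/CD25 samples, 16 calls in all (56.2% of all genes tested were called in CD8 T cells and 20.9% in B cells). In NK cells and ILC1, Csf2rb had 2.71, 3.91, 2.70 and 2.84 CPM in the IL-2/CD25 samples, against 23.04, 22.7 and 7.34 CPM in the control samples (-2.73 ± 0.31, edgeR adjusted p = 2.17e-05). In monocytes the gene stood at 312 to 393 CPM in the IL-2/CD25 samples and 345 to 440 CPM in the control samples.

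Plasma cells, of which the IL-2/CD25 samples held 20 and the control samples 31, also held Csf2rb. Averaged over 2 IL-2/CD25 samples the level was 61.4 CPM, above the 9.4 CPM of B cells. Averaged over 2 control samples it was 34.1 CPM, below the 49.9 CPM of B cells. A Csf2rb UMI was found in 45% of plasma cells in the IL-2/CD25 samples and in 51.6% in the control samples. Their median depths were 15236.5 and 17578 UMIs per cell, with 25 and 24 Csf2rb UMIs in all. B cells had median depths of 2731.5 and 1840.5 UMIs, so these percentages cannot be set against those of B cells. Plasma cells were too few for the comparison at 20 cells per sample.

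Markers of other cell types moved with the low levels in NK, T and B cells. In NK cells and ILC1 the neutrophil markers, all 10 with a UMI, summed to 115 to 192 CPM in the IL-2/CD25 samples and 1040 to 1513 CPM in the control samples. The C1q macrophage markers summed to 33.04 to 93.6 CPM and 111 to 194 CPM. The count of Csf3r UMIs in NK cells and ILC1 was 219 in the IL-2/CD25 samples, where 137 would come with the S100a8 and S100a9 seen there, and 29 in the control samples, where 15.4 would. With an estimate of free RNA subtracted, 1 of the 16 comparisons kept enough UMIs for a test, Csf2ra in B cells, and it was not called (-1.38, adjusted p = 0.297). Without control replicate 1, 7 of the 16 calls were lost: Csf3r in all 4 classes (adjusted p from 0.0561 in CD8 T cells to 0.382 in other T cells), Csf2ra in B cells (0.34) and other T cells (0.2), and Csf1r in other T cells (0.345). Without control replicate 2, Csf1r (0.0711) and Csf2ra (0.0517) in other T cells were lost. Without control replicate 3, Csf1r in B cells (0.119) and Csf3r in NK cells and ILC1 (0.0572) and other T cells (0.114) were lost. With doublets kept, Csf1r and Csf3r were lost in NK cells and ILC1 (0.0515 and 0.0867) and in other T cells (0.108 and 0.156), and Csf3r in CD8 T cells (0.0664).

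A fixed list of 36 further genes of these pathways covers other ligands and receptors, JAK-STAT signalling and its feedback, and the transcription factors of myeloid and dendritic fate. In monocytes 17 of the 29 tested were higher and 6 lower in the IL-2/CD25 samples, with a median log2 change of 0.50, against 0.00024 over all genes. The calls covered 79.3% of the list in monocytes, against 51.7% of all genes tested. The list was chosen with earlier results of these data known, so its shares here and below are a description only. Cish, a feedback inhibitor induced by STAT5 downstream of GM-CSF and related cytokines, fell in monocytes to 24.6 ± 21.3 CPM in the IL-2/CD25 samples, against 162 ± 16 CPM in the control samples (-2.87 ± 0.28, edgeR adjusted p = 2.83e-06). It also fell in C1q macrophages (-1.70 ± 0.30, adjusted p = 0.000903), neutrophils (-2.18 ± 0.16, adjusted p = 6.8e-08) and granule-rich neutrophils (-4.64 ± 0.51, adjusted p = 0.000322). Cebpe, a transcription factor of granulocyte maturation, fell in monocytes (-3.78 ± 0.47, adjusted p = 2.04e-05) and C1q macrophages (-3.74 ± 0.60, adjusted p = 0.000484). In monocytes it averaged 1.02 ± 1.18 CPM in the IL-2/CD25 samples, near the floor, and 16.8 ± 1.7 CPM in the control samples. Summed neutrophil markers were also lower in both classes of the IL-2/CD25 samples, and their part in the Cebpe change was not tested. Irf4, a transcription factor of cDC2 and of activated T cells, rose in monocytes (2.72 ± 0.31, adjusted p = 1.11e-05) and in CD4 T cells (3.94 ± 0.77, adjusted p = 0.00501). In CD4 T cells it averaged 49.9 ± 17.5 CPM in the IL-2/CD25 samples and 2.11 ± 3.66 CPM in the control samples. That control level is near the floor, so the size of the change is uncertain. The share of CD4 T cells with a Foxp3 UMI also differed between the groups, as given above.

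In neutrophils 10 of 26 tested list genes were higher and 5 lower, 57.7% of the list against 49.4% of all genes tested. Csf2rb2, the mouse interleukin-3 receptor chain next of kin to Csf2rb, fell to 25.5 ± 8.8 CPM in the IL-2/CD25 samples, against 72.2 ± 1.7 CPM in the control samples (-1.93 ± 0.20, adjusted p = 1.55e-06). Because the 2 genes are near-identical copies, reads could be split between them, and both values carry that uncertainty. Ccnd2, a cyclin of cell-cycle entry, rose in neutrophils (1.63 ± 0.14, adjusted p = 3.02e-07) but fell in monocytes (-2.79 ± 0.18, adjusted p = 5.19e-08). In C1q macrophages 9 of 30 were higher and 3 lower, 40% of the list against 29.8% of all genes tested. Adam17, the protease that sheds CSF1R from the cell surface, rose to 222 ± 23 CPM in the IL-2/CD25 samples, against 66.4 ± 6.8 CPM in the control samples (1.60 ± 0.14, adjusted p = 5.1e-06). In NK cells and ILC1 11 of 32 list genes were higher and 12 lower, 71.9% of the list against 43.3% of all genes tested. Among the lower ones was the myeloid gene Spi1, at 4.08 ± 1.06 CPM in the IL-2/CD25 samples and 23.4 ± 10.8 CPM in the control samples (-2.65 ± 0.31, adjusted p = 2.37e-05).

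Across the 36 class-by-group means, the genes whose log2(CPM + 1) pattern was most like that of each factor or receptor were ranked by Pearson's r, as a description; the means share libraries. Csf2ra was most like Tlr13 (r = 0.942) and Spi1 (0.942), the gene of PU.1. Csf2rb was most like Pirb (0.933), Spi1 (0.918) and Csf2rb2 (0.908). Csf3r was most like Clec4d (0.93), Arg2 (0.92) and Fpr2 (0.899), and Csf1r like Clec4a3 (0.906) and Adgre1 (0.895), which encodes the macrophage antigen F4/80. Flt3 was most like Mycl (0.878), a transcription factor of dendritic cells. Csf1 was most like Hdc (0.765), and Il34 like Pak3 (0.933).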

How the data were processed

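For each of 7 samples the authors deposited a matrix of raw UMI counts per gene and barcode, whole numbers with no normalization. Per the submitters' processing notes, bcl2fastq 5.0.1 and Cell Ranger 7.0.0 were used; build and annotation: not given in the sources used here. The cell filter kept barcodes of 500 or more UMIs and 200 or more genes, with 20% mitochondrial UMIs as the upper limit. Doublets, set at 0.8% per 1000 barcodes (5.81 to 8.51% per sample), were removed by comparison with simulated pairs. Leiden clustering (leidenalg 0.10.2, resolution 1) ran on 30 principal components of 2000 variable genes without the 10 genes described, and its 66 clusters were named by marker lists. T cells were gated on Cd8a, Cd8b1, Cd4 and Foxp3 UMIs. Different clusters hold most of several classes in the 2 groups.

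Sums of UMI counts for each sample and class were tested with edgeR 4.0.16 (quasi-likelihood, TMM scaling, filterByExpr, Benjamini-Hochberg adjustment over all genes of a class). Fitted changes use TMM scaling and printed CPM does not: library sizes alone move the median of all genes by 0.46 (log2) in neutrophils and granule-rich neutrophils, 0.44 over all cells and 0.12 in C1q macrophages. Exact Poisson intervals (95%) cover counting error only. The estimate of free RNA used markers of other classes. Alternatives were DESeq2 1.42.0, median-of-ratios scaling, no low-count filter, the replicate block, doublets kept, stricter cells (500 genes, 10% mitochondrial), marker gating, thinning and each sample left out. Library sizes without TMM, cluster 1 added to neutrophils, and a minimum of 5 cells per sample were chosen after seeing the data. On simulated data the test found 19.0 to 80.4% of 2-fold and 55.2 to 100.0% of 4-fold changes, depending on the class.

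The 10 genes, the marker lists and the 36 pathway genes were chosen with earlier results of these data known. All 10 genes are named, and pathway genes are named among up to 6 per class by size of change; some of these genes are not reported here. The replicate numbers come from the sample titles.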

Additional observations from a re-analysis of the deposited data

Results flagged for a closer look

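Among 78 groups of 4 IL-2/CD25 samples, 6 held a value that stood apart from the other 3 (chance gives about 1 in 20 groups). Csf2ra in monocytes was 279.8 CPM in replicate 2, with the next value at 234.0 CPM. Csf2rb in NK cells and ILC1 was 3.91 CPM in replicate 2, next to 2.84 CPM. Csf1 in other T cells was 7.76 CPM in replicate 4, next to 4.10 CPM, and Csf1r there was 1.25 CPM in replicate 1, next to 3.17 CPM. In ILC2, replicate 1 was highest for Csf1 (261 CPM, next to 76.0 CPM) and for Csf2ra (22.5 CPM, next to 7.38 CPM).

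Of the 10 genes, 3 were called in both directions in different classes. The log2 change of Csf1r was 1.95 in monocytes and -2.70 in B cells, a difference of 4.64 (two-sided exact permutation p = 0.0286, the minimum over 35 groupings). The Flt3 change was 4.94 in monocytes and -0.68 in plasmacytoid dendritic cells, a difference of 5.63 (exact permutation p = 0.0286, the same minimum). The Csf3r change was 2.69 in C1q macrophages and -1.87 in B cells, a difference of 4.55 (exact permutation p = 0.1, the minimum over 20 groupings). These pairs were picked for their opposite directions in the same samples, so the minimum p-values follow from that choice and are no added evidence. The permutations used each sample's difference in log2(CPM + 1) between the 2 classes, without TMM scaling, and not the fitted changes.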

How the results depend on the processing

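The 15 gene-class pairs higher in the IL-2/CD25 samples were 12 to 18 under the other settings, and 14 to 16 with 1 sample left out. The 20 lower pairs were 3 with free RNA subtracted and 3 with sums thinned to equal UMIs, where fewer pairs had enough UMIs to be tested (43 and 37), and 11 to 19 with 1 sample left out; the 11 was without control replicate 1. Over all cells, 2 genes were higher, or 1 to 2 with a sample left out, and 5 were lower, or 5 to 7. Of 42 called results, 29 were called in every fit that left out a sample. DESeq2 and median-of-ratios scaling each kept 42 of 42 calls. Csf2ra in neutrophils reversed to 0.96 (edgeR adjusted p = 0.00375) with cells gated 1 by 1 on marker UMIs, from -0.22; the cause was not tested. With the replicate block, 15 pairs were higher and 19 lower, over all cells 2 and 5, and 40 of 42 calls were kept. The block lost Csf2rb in C1q macrophages (adjusted p = 0.107) and Csf3r in other T cells (adjusted p = 0.0606) and gained Csf2ra in CD4 T cells (-2.13, adjusted p = 0.033). The correlations of same-numbered samples over all cells were -0.227, -0.032 and 0.182. Those of differently numbered samples ran from -0.239 to 0.267, so the check cannot tell whether the numbers pair the samples. For Il34, the number of tumour cells in the IL-2/CD25 samples (15), not the UMIs of the gene, limits what can be compared per class; Csf3, with 243 UMIs in all, is limited by depth as well.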

Other observations

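Some unnamed and small clusters held these genes. Cluster 68, led by Dntt, Sox4 and Hoxa9 (44 cells in the IL-2/CD25 samples and 3 in the control samples), had 538 CPM of Flt3 in the IL-2/CD25 samples (458 to 629 by counting error), above cDC1 of the same samples. Cluster 57, led by Kcnc1 and Il23r (93 cells, all in the IL-2/CD25 samples), had 26.7 CPM of Csf2 (13.3 to 47.7). Endothelial cells of the IL-2/CD25 samples had 37.1, 74.4 and 66.1 CPM of Csf1 in the 3 samples with 10 or more of these cells.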
